A study of Mus musculus with 4 samples.

Results

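Pituicytes are the resident glia of the posterior lobe of the pituitary. They surround the axons and terminals through which hypothalamic neurons release vasopressin and oxytocin, and they are known to change shape around those terminals when secretion is stimulated. They develop from the infundibulum, the downgrowth of the ventral forebrain whose Rax, Nkx2-1, Lhx2 and Tbx3 programme and FGF signals are known from mouse development to shape the whole gland. Here they were described in single-nucleus RNA sequencing of whole mouse pituitary, as 178 of 35615 nuclei (0.5%).

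A nucleus was counted as a pituicyte when its barcode held at least 500 genes and under 5% mitochondrial UMIs (unique molecular identifiers, each counting 1 captured transcript), had a UMI in at least 2 of the 4 markers Rax, Nkx2-1, Col25a1 and Scn7a, and 1 of those was Rax or Nkx2-1. The summed UMIs of Ghrhr, Pappa2 and Epha6, which mark somatotropes and lactotropes, were at most 1. The members were thus chosen by their UMIs of these 7 genes, so the levels of those genes are a description and carry no test. In CPM (the counts summed over members, scaled to a sum of 1000000 per library), the 4 libraries ranged between 146 and 162 for Rax, the homeobox factor of the eye and ventral forebrain, and between 142 and 252 for the homeobox factor Nkx2-1. The range was 7075 to 10107 CPM for the transmembrane collagen Col25a1 and 1078 to 1773 CPM for the sodium channel Scn7a. A Rax UMI was present in 96 of the 178 nuclei, an Nkx2-1 UMI in 123, both in 41, Col25a1 in 177 and Scn7a in 159.

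The study compared labelled age and sex in wild-type UM-HET3 mice, a genetically mixed stock. Its 4 groups are 22-month-old females, 22-month-old males, 5-month-old females and 5-month-old males, untreated as far as the labels say, with 1 library per group. Each library was made from frozen glands of 3 mice pooled before sequencing, so animals cannot be told apart and no group has a replicate library. In the 4 libraries in that order, 38, 63, 37 and 40 pituicytes were found, with 253180, 380182, 198560 and 210311 UMIs in sum. The median member held 5648, 5278, 5094 and 4564.5 UMIs in the same libraries. No member barcode occurred in more than 1 library.

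The sex-chromosome transcripts did not follow the labelled sex. Xist, the non-coding RNA of the silenced X, was found in 38 of 38 and 63 of 63 pituicytes of the libraries labelled 22-month females and 22-month males, against 1 of 37 and 0 of 40 in those labelled 5-month females and 5-month males. A UMI of the Y-linked genes was found in 0 and 0 of them in the 22-month libraries, against 34 (91.9%) and 36 (90%) in the 5-month libraries. The same held over all nuclei of each library. Groups are named here as labelled, but labelled age cannot be told apart from the sex of the mice that these transcripts report, and labelled sex compares libraries whose sex-chromosome transcripts are of 1 kind.

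Pituicytes took a similar share of each library. The share was 0.467% (95% exact binomial interval 0.331 to 0.641%) in the library labelled 22-month females and 0.522% (0.401 to 0.668%) in that labelled 22-month males, against 0.499% (0.351 to 0.687%) in 5-month females and 0.5% (0.357 to 0.680%) in 5-month males. The intervals overlap, cover counting error alone and allow no test, since each group is 1 library.

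The rule left out nuclei that carried much of the same profile. A further 114 nuclei held Col25a1 and Scn7a but no Rax or Nkx2-1 UMI, and 28 held Rax or Nkx2-1 alone. Those 114 nuclei had 1058.5 CPM of the glutamate transporter Slc1a3 against 1630 CPM in members, and their leading genes stood at a lower level than in members, with 1110 against 2184 CPM of the adhesion gene Lrrtm3, 1685 against 2785 CPM of the catenin Ctnna3, 1085 against 1680 CPM of Fgf10 and 414 against 680 CPM of the cadherin Cdh19. Pomc, the melanotrope and corticotrope precursor, was at 16505 CPM in them, against 5218 CPM in members. The 28 with Rax or Nkx2-1 alone had 0 counts of Lrrtm3 and Ctnna3. Another 33 nuclei met the marker rule but had more than 1 UMI of the 3 excluded genes, with 499 CPM of Lrrtm3 and 372 CPM of Slc1a3.

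The nuclei carried a compact set of transcripts that the rest of the gland almost lacked. Among 3161 genes with at least 10 counts in members of every library, 1167 were above all other nuclei in every library, 122 by over 10-fold and 38 by over 50-fold. Because the rule chose the nuclei by their transcripts, no test was made of any of these differences. The 20 genes with the largest ratio, taken at the lowest of the 4 libraries, were Lrrtm3, Gldc, Sfta3-ps, Ctnna3, Fndc3c1, Otx2, Lhx2, Tbx3os1, Cdh19, Fgf10, Otx2os1, Fbn2, Col13a1, Gm16263, Popdc3, A630012P03Rik, Slco1a5, Ism2, Gpc3 and Col23a1.

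Lrrtm3, a leucine-rich transmembrane protein known from synapses, led the list. It had 2627 CPM in 22-month female, 1965 CPM in 22-month male, 2014 CPM in 5-month female and 2206 CPM in 5-month male pituicytes, against 6.58, 8.14, 9.75 and 4.71 CPM in the other nuclei of those libraries. The lowest ratio was 207-fold, and 96.1% of pituicytes held a UMI. Ctnna3, the alpha-T-catenin gene that holds Lrrtm3 within it on the opposite strand, had 2457, 2472, 3243 and 3314 CPM in pituicytes of the same libraries, against 8.62 to 19 CPM in other nuclei. The sources used here do not state whether counting used the strand, so reads of these overlapping genes cannot be told apart.

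Further pairs on the list carry the same limit. Otx2, the forebrain homeobox factor, shares 5112 bases with Otx2os1 on the opposite strand, and Tbx3 shares 697 bases with Tbx3os1. Fgf10 overlaps Gm16263 over 20105 bases, and the heparan sulfate proteoglycan gene Gpc3 overlaps A630012P03Rik over 38108 bases. Sfta3-ps lies 2530 bases from Nkx2-1 on the same strand. Its levels therefore stand beside a gene of the rule.

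Fgf10, the growth factor that the embryonic infundibulum sends to the future gland, had 2153 and 1691 CPM in pituicytes of the libraries labelled 22-month females and males, and 1717 and 1056 CPM in those labelled 5-month females and males. It was detected in 94.4% of pituicytes and stood at least 119-fold above other nuclei in every library. Gldc, the glycine-cleaving decarboxylase of glial mitochondria, ranged between 637 and 1098 CPM and was found in 87.6% of pituicytes. Otx2 ranged between 81 and 182 CPM and was found in 38.8%, and Lhx2, whose loss in mouse embryos blocks growth of the posterior lobe, between 52 and 91 CPM.

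Col13a1 and Col23a1, transmembrane collagens of the same group as the marker Col25a1, were the other collagens of the list. Col13a1 had 735, 800, 1032 and 1170 CPM in pituicytes of the 22-month female, 22-month male, 5-month female and 5-month male libraries. Col23a1 had 446, 1147, 458 and 737 CPM in the same order of libraries, higher in both libraries labelled male. The adhesion gene Cdh19 ranged between 456 and 877 CPM. Cdh19 is also a Schwann cell marker, but the neural crest factors Foxd3 and Sox10 that define Schwann cells were at 0 counts in pituicytes.

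The promoters of Otx2, Col13a1 and Col23a1 are shown as leading genes whose start regions hold one of the letter strings searched. Of the 20 leading genes, 14 were in the RefSeq promoter table (GRCm38.p6), with 21 promoters of 300 bases, 250 before and 50 after the start. TAATTA, the core read by Rax-like and Lhx2-like homeodomains and the same on both strands, occurred in 1738 of 32851 promoters (5.29%) and in 2 of the 21, both of Otx2. CAAGTG, a form of the Nkx2-1 core, searched as CACTTG on the other strand too and overlapping the E-box form CANNTG, occurred in 13.6% of all promoters and in 4 of the 21, those of Col13a1, Slco1a5 and Col23a1. Letters in capitals mark a match; a match is no evidence of binding.
Otx2 promoter, chr14:48665060-48665359, minus strand: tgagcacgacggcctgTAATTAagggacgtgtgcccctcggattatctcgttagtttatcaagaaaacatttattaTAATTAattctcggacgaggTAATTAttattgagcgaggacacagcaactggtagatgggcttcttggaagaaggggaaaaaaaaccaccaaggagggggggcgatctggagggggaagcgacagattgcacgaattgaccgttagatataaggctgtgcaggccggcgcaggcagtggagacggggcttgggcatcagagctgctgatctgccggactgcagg
Col13a1 promoter, chr10:61979059-61979358, minus strand: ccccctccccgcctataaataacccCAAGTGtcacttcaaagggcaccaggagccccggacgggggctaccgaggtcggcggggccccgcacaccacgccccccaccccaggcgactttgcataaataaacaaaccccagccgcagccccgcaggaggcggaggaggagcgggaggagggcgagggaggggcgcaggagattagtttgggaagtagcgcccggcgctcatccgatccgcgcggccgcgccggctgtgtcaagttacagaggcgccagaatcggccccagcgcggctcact
Col23a1 promoter, chr11:51289670-51289969, plus strand: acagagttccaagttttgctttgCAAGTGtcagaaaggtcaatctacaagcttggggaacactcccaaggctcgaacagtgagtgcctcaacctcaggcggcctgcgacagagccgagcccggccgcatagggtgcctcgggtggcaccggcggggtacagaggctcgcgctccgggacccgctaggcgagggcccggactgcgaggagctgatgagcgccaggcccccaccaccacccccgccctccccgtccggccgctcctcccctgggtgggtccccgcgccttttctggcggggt

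**Figure D1:**
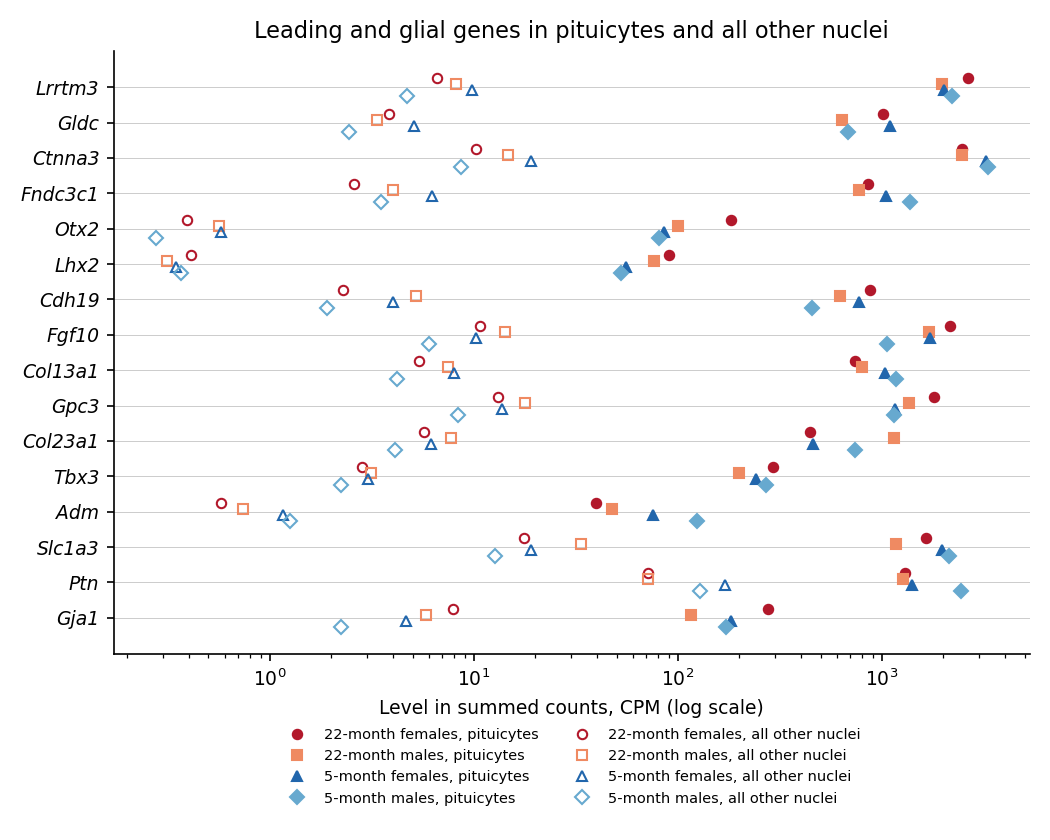
CPM (log axis) of 16 genes that the rule did not use, in 4 libraries, with filled points for pituicytes and open points for all other nuclei. The leading genes stand over 70-fold above other nuclei, as Lrrtm3 at 1965 to 2627 CPM against 4.71 to 9.75 CPM.

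Glial genes and markers of other types were then read in the same nuclei. Of 21 listed glial genes, 10 had at least 10 counts in every library, and these 10 stood above all other nuclei in every library. The minimum was asked of pituicytes alone, here and in the lists that follow, so it favours genes that are high in them. Among all genes that met it, 1167 of 3161 stood above other nuclei, and the list counts are a description, not a check of the label. Slc1a3, the glial glutamate transporter, had 1635 CPM in 22-month female, 1173 CPM in 22-month male, 1959 CPM in 5-month female and 2140 CPM in 5-month male pituicytes, against 12.7 to 33.5 CPM in other nuclei. Ptn, the growth factor pleiotrophin, had 1303, 1270, 1410 and 2430 CPM in the same libraries. Its receptor Ptprz1 had 367, 492, 745 and 865 CPM. The connexin Gja1 ranged between 116 and 276 CPM and the BDNF receptor Ntrk2 between 604 and 808 CPM.

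The classical stains of pituicytes were faint. Gfap, the glial intermediate filament, had 14 counts over all pituicytes, and S100b, whose protein is stained in pituicytes of several species, had 2. The astrocyte water channel Aqp4 had 2 counts and Fabp7 none. A 0 over 178 nuclei allows a share of nuclei with a UMI of up to 1.69%. Summed glial transcripts were 7793 and 6881 CPM in the 22-month female and male libraries and 8395 and 10042 CPM in the 5-month ones, against 970 to 1260 CPM in other nuclei. In stem or folliculostellate nuclei, the supporting cells of the anterior gland, they were at 5008 to 7117 CPM, so glial genes as a list do not set pituicytes apart from those cells.

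Of the markers of other cell types, a few defining ones were at 0. Mog and Sox10 of oligodendrocytes, Pdgfra of fibroblasts, Ptprb of endothelium, F13a1 of macrophages and Fxyd3 of stem nuclei were at 0 counts, and the stem marker Aldh1a2 had 2 counts. The other members of those lists were mostly found: 1 of 7 stem, 1 of 5 endothelial, 1 of 5 macrophage, 1 of 5 fibroblast, 2 of 5 oligodendrocyte and 0 of 5 neuronal markers were at 0. Summed over their lists, endothelial markers ranged between 0 and 45.3 CPM over the libraries, against 25.4 to 70.5 CPM in other nuclei, and stem markers between 55.2 and 63.2 CPM, against 51 to 69.4 CPM. Macrophage markers had 60.5 CPM in pituicytes of the library labelled 22-month males, against 20.4 CPM in its other nuclei, and 4.75 to 15.8 CPM in pituicytes of the other libraries. Fibroblast markers had 107, 84.2, 106 and 14.3 CPM in pituicytes of the 22-month female, 22-month male, 5-month female and 5-month male libraries, against 223, 172, 94.2 and 103 CPM in other nuclei. Gonadotrope markers had 276, 10.5, 50.4 and 23.8 CPM in pituicytes in the same order of libraries, against 114, 116, 310 and 301 CPM in other nuclei. Thyrotrope markers had 205, 179, 161 and 114 CPM in pituicytes, against 204, 136, 277 and 308 CPM in other nuclei. Neuronal markers ranged between 136 and 610 CPM, against 1904 to 2615 CPM in other nuclei. Still, 17 pituicytes (4, 9, 3 and 1 in the 22-month female, 22-month male, 5-month female and 5-month male libraries) held at least 2 markers of another type, leaving 161 without. The 7 hormone genes took 4.22, 6.77, 3.18 and 5.64% of pituicyte UMIs in the same libraries, against 8.05, 12.5, 10.3 and 16% in other nuclei. Free RNA from the anterior lobe and genuine doublets were not tested as a source.

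After thinning every nucleus to 1500 UMIs, to compare shares of nuclei at 1 depth, Slc1a3 was found in 80.2% of pituicytes, 22.6% of stem nuclei, 1.03% of endothelial nuclei and 7.88% of macrophages. The thinning kept 177 pituicytes, 464 stem, 485 endothelial and 203 macrophage nuclei and left out shallower ones, among them 1 pituicyte of the library labelled 5-month females and 17 to 25 endothelial nuclei per library. Without it the Slc1a3 shares were 96.6% of pituicytes, 41.9% of stem nuclei, 5.11% of endothelial nuclei and 16.1% of macrophages, at median depths of 1842 to 3104 UMIs in endothelial nuclei and 2489 to 3792 in macrophages. The adhesion gene Lrrtm3 was found in 85.9%, 1.29%, 0.619% and 0.985% of the same classes, and Ctnna3 in 89.8%, 2.16%, 1.86% and 0.493%. Ptn was found in 81.4%, 11.4%, 6.60% and 11.3%. Erbb4, a neuregulin receptor, was as common in stem nuclei, with 94.4% of pituicytes and 91.4% of stem nuclei. The connexin Gja1 was more often found in endothelial nuclei (25.2%) than in pituicytes (17.5%), stem nuclei (3.88%) or macrophages (0.985%). Apoe, the lipid carrier of astrocytes and macrophages, was found in 41.2% of pituicytes, 14.9% of stem nuclei, 33% of endothelial nuclei and 76.4% of macrophages. In summed counts of the 22-month female, 22-month male, 5-month female and 5-month male libraries, macrophages had 2120, 2685, 1646 and 2892 CPM of Apoe. Pituicytes had 213, 350, 312 and 718 CPM, lower in every library. The difference was not tested.

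**Figure D2:**
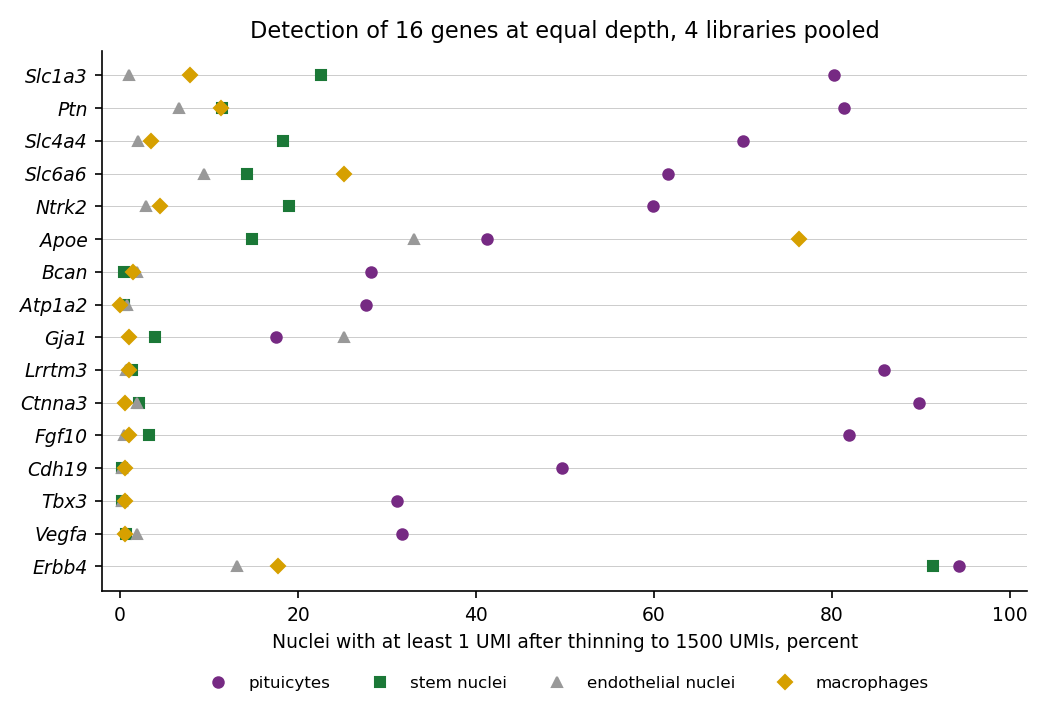
Percent of nuclei with at least 1 UMI after thinning to 1500 UMIs, for 16 genes in pituicytes, stem, endothelial and macrophage nuclei with the libraries pooled. Lrrtm3 is found in 85.9% of pituicytes and at most 1.29% of the others, whereas Erbb4 is found in 91.4% of stem nuclei.

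Transcription factors known from development of the ventral forebrain were detected in these adult nuclei. Of 17 listed ventral forebrain factors, 7 had enough counts and all 7 were above other nuclei in every library, among them Tbx3 (200 to 292 CPM), a T-box repressor of the infundibulum, Six3 (91 to 166 CPM), a forebrain homeobox factor, and Id4 (124 to 247 CPM), an inhibitor of helix-loop-helix factors. Sox1 had 16 counts and Nkx2-4 had 13 over all pituicytes. Hes5 was at 0 counts, as far as this depth shows. Summed, the 17 factors had 1335, 1005, 1380 and 1198 CPM in pituicytes of the 22-month female, 22-month male, 5-month female and 5-month male libraries. Stem nuclei had 942, 757, 1355 and 1374 CPM in the same libraries. As a list, these factors do not set pituicytes apart from stem nuclei.

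Among 17 listed signals, 5 had enough counts and 4 were above other nuclei: Fgf10, Vegfa, Adm and Tgfb2. Vegfa, the endothelial growth factor, had 190 and 268 CPM in pituicytes of the libraries labelled 22-month females and males, against 201 and 352 CPM in those labelled 5-month females and males. Adrenomedullin, the vasodilator peptide encoded by Adm, had 39 and 47 CPM in the 22-month libraries, against 76 and 124 CPM in the 5-month ones. The axon guidance gene Slit2 was below other nuclei in every library, and Shh and Cyp26b1 were at 0 counts.

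Among receptors, 4 of 21 had enough counts and 3 were above other nuclei, namely Erbb4 (2760 to 3855 CPM), Fgfr1 and Notch2. At 0 counts were the vasopressin receptors Avpr1a and Avpr1b, the oxytocin receptor Oxtr, the dynorphin receptor Oprk1 and the nucleotide receptor P2ry2. A 0 in 1042233 UMIs allows up to 2.88 CPM. The peptide messages Avp and Oxt, which hypothalamic axons carry, had 5 and 12 counts over all pituicytes.

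Several transport genes stood above other nuclei in every library. Of 16 listed channels and transporters, 7 had enough counts and 5 were above other nuclei. The bicarbonate cotransporter Slc4a4 ranged between 982 and 1317 CPM. Slc6a6, the transporter of taurine, an amino acid that pituicytes are known in the rat to release when the surrounding fluid turns dilute, had 1074 and 1098 CPM in pituicytes of the libraries labelled 22-month and 5-month females, against 615 and 647 CPM in those of 22-month and 5-month males. The chloride importer Slc12a2 ranged between 234 and 644 CPM and the cation channel Trpm3 between 2003 and 2446 CPM. Of 20 matrix and adhesion genes, 8 had enough counts, 3 were above other nuclei (Cdh2 at 1013 to 1916 CPM, Nrcam, and the brain proteoglycan Bcan at 139 to 276 CPM) and 3 below.

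Activation and stress genes did not stand above other nuclei. Of 15 immediate-early genes, which cells switch on within minutes of stimulation or dissociation, 1 had enough counts and none was above other nuclei in every library. Their sum was 170 and 163 CPM in 22-month female and male pituicytes, against 222 and 352 CPM in 5-month female and male pituicytes. It was 833 CPM in the other nuclei of the library labelled 5-month males and 1374 CPM in its stem nuclei. Of 14 reactive glia genes, 3 had enough counts and none stood above other nuclei. Serpina3n, C4b and Cxcl10 were at 0 counts.

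Some transcripts varied among pituicytes by more than Poisson counting. Over the 161 nuclei without markers of another type and 2854 genes with at least 60 UMIs, the median variance was 1.22 times that of Poisson counting at each nucleus's depth. These genes were ranked and chosen after their values were seen, so the figures are a description. Plppr1, a phospholipid phosphatase-related membrane protein, stood 13.7 times above Poisson, was found in 65.7% of pituicytes, and had 56.9% of its UMIs in the 18 highest nuclei. Il1rapl2, a synaptic adhesion receptor, stood 15.4 times above Poisson. It was found in 38 nuclei, 5 in the 22-month female, 25 in the 22-month male, 4 in the 5-month female and 4 in the 5-month male library, with up to 64 UMIs in 1 nucleus. The cell adhesion molecule Chl1 (6.87) was found in 5, 20, 9 and 24 nuclei of the same libraries, and the adhesion gene Cdh18 (10.3) in 24, 17, 10 and 6. Malat1 (72.9) and Nrg1 (18.8) stood higher still. The ratio was 4.09 for Slc1a3 and 3.57 for Ptn, above the median gene, and 1.18 for Adm. These 3 genes had 1600, 1521 and 65 UMIs in the 161 nuclei. At equal relative spread the ratio rises with a gene's counts, so it does not order genes of unlike level. The 161 nuclei held 890 of 905 UMIs of Plppr1, 264 of 367 of Il1rapl2, 237 of 245 of Chl1 and 513 of 602 of Cdh18. The nuclei of the 5-month female library with 25 and 20 UMIs of Il1rapl2 held markers of another type.

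The metabotropic glutamate receptor Grm5 had 74 UMIs in 7 nuclei, and 61 of these UMIs were in 1 nucleus of the library labelled 22-month males. Depth and the number of rule markers in a nucleus were not ordered alike. The 39 nuclei with all 4 markers had a median of 6379 UMIs, against 4706 in the 121 with 3 and 4888.5 in the 18 with 2.

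**Figure D3:**
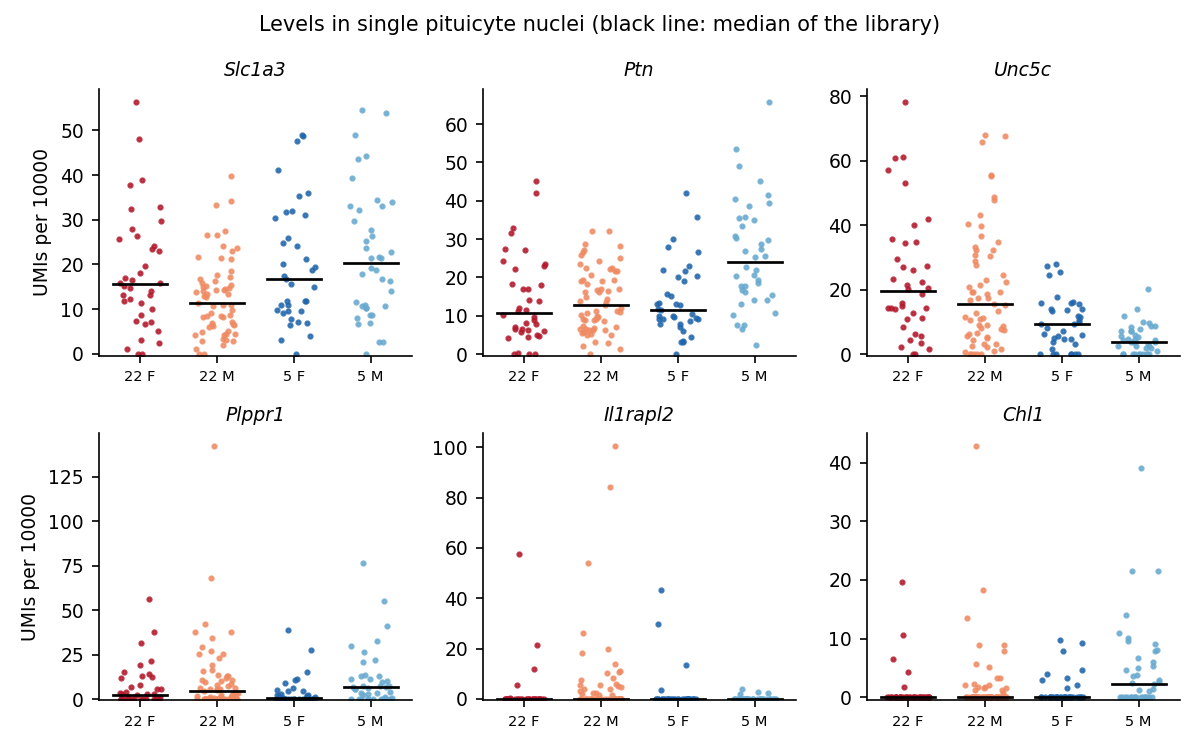
UMIs per 10000 of 6 genes in each pituicyte, by library, with a black line at the median. Slc1a3 has medians of 15.5, 11.4, 16.8 and 20.3 in the libraries labelled 22-month females, 22-month males, 5-month females and 5-month males, while Il1rapl2 has a median of 0 in all 4 and single nuclei up to 100.5.

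Pituicytes of the 22-month libraries had more of the netrin receptor Unc5c, the cyclic AMP phosphodiesterase Pde4b and the zinc transporter Slc39a12 than those of the 5-month libraries. They had less of the Notch effector Hes1, the AMPA receptor partner Shisa6, the sorting receptor Sorcs3 and the lipid synthesis regulator Srebf1. Labelled age was compared as 22-month over 5-month libraries. The counts of all pituicytes of a library were summed, and edgeR's quasi-likelihood test with labelled sex as a covariate was fitted over 4791 genes. It left 1 residual degree of freedom and gave all genes 1 shared spread, so adjusted p-values measure the spread between these 4 pools, not between mice. Of 4791 genes, 122 (2.55%) passed an adjusted p of 0.05, with 78 (1.63%) higher and 44 (0.918%) lower in the 22-month libraries. Groups did not overlap at 40.6% of all genes tested. Beside these counts stand 12 higher and 5 lower with DESeq2, 1 and 2 in a fit with labelled age as the only term, and 16 and 11 without the 17 pituicytes that hold markers of another type. Leaving out each library in turn, 1 of the 78 (Xist) and none of the 44 passed in all 4 fits, while 34 and 22 passed in none. These fits called 26 higher and 7 lower without 22-month females, 1 and 0 without 22-month males, 29 and 19 without 5-month females, and 56 and 18 without 5-month males.

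The guidance receptor Unc5c, which binds netrin, was higher in 22-month pituicytes. It had 2224 CPM in 22-month females and 1833 CPM in 22-month males, against 912 CPM in 5-month females and 447 CPM in 5-month males. The groups do not overlap, and the log2 fold change was 1.57 ± 0.24 (SE; edgeR adjusted p = 2.68e-08), still passing without nuclei that hold other markers (adjusted p = 0.00358). In other nuclei it had 375 and 234 CPM in the 22-month libraries, against 329 and 320 CPM in the 5-month ones. With DESeq2 its adjusted p was 6.37e-07, and 1 of the 4 leave-outs kept the call.

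Pde4b, which degrades the second messenger cyclic AMP, had 1560 CPM in 22-month females and 786 CPM in 22-month males, against 599 CPM in 5-month females and 295 CPM in 5-month males. The groups do not overlap, and its log2 fold change was 1.32 ± 0.24 (edgeR adjusted p = 7.04e-06). In 22-month females, 139 of its 395 UMIs were in 1 nucleus. The median pituicyte had 7.47 and 5.40 UMIs of Pde4b per 10000 in 22-month females and males. It had 5.59 and 0 in 5-month females and males, so the medians overlap where the sums do not. The zinc transporter Slc39a12 had 407 and 334 CPM in 22-month females and males, against 121 and 90.3 CPM in 5-month females and males, a log2 fold change of 1.74 ± 0.29 (adjusted p = 6.7e-07). Npas3, a helix-loop-helix factor of brain development, had 806 and 773 CPM in 22-month females and males, against 378 and 414 CPM in the 5-month libraries (log2 fold change 0.93 ± 0.24, adjusted p = 0.00768). In stem nuclei of the 22-month female, 22-month male, 5-month female and 5-month male libraries, Pde4b had 966, 507, 512 and 154 CPM. Slc39a12 had 1158, 668, 767 and 547 CPM there, above pituicytes in every library. Npas3 had 511, 371, 162 and 215 CPM in those stem nuclei. Other called genes above the level of other nuclei were the adhesion gene Cntn1 (log2 fold change 1.46), the metalloprotease Mmp16 (1.46), the phosphatase Ptprt (1.18), the GABA receptor subunit Gabra3 (1.16), the adhesion gene Cntn4 (1.60), the scaffold Lin7a (0.93) and the potassium channel Kcnq3 (2.11). The scaffold Grip1 had 849 and 689 CPM in 22-month females and males, against 307 and 214 CPM in 5-month females and males. The growth factor Pdgfc had 209 and 147 CPM in 22-month females and males, against 40.3 and 76.1 CPM in the 5-month libraries. Both were called. In stem nuclei of the 22-month female, 22-month male, 5-month female and 5-month male libraries, Cntn1 had 1076, 686, 272 and 271 CPM. Ptprt had 79.2, 201, 24.1 and 24.3 CPM there, and Lin7a 185, 105, 61.9 and 68.9 CPM. Mmp16 had 152, 171, 51.6 and 109 CPM, and Pdgfc 17.6, 20.4, 6.88 and 8.10 CPM. The stem levels of Cntn4, Grip1, Gabra3 and Kcnq3 overlapped between the ages.

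Among genes lower in 22-month pituicytes were Shisa6, an auxiliary subunit of AMPA receptors, and Hes1, the transcriptional repressor downstream of Notch. Shisa6 had 59.2 CPM in 22-month females and 63.1 CPM in 22-month males, against 292 CPM in 5-month females and 181 CPM in 5-month males. The groups do not overlap, and its log2 fold change was -1.95 ± 0.31 (edgeR adjusted p = 1.26e-07). Hes1 had 75 and 47.3 CPM in 22-month females and males, against 358 and 124 CPM in 5-month females and males, a log2 fold change of -1.95 ± 0.32 (adjusted p = 2.76e-07). Among pituicytes the 5-month female library was the highest for both. In stem nuclei Hes1 was lower as well, with 106 and 63.7 CPM in 22-month females and males, against 265 and 490 CPM in 5-month ones. In other nuclei Hes1 had 8.53 and 8.82 CPM in the 22-month libraries, against 13.8 and 19.3 CPM in the 5-month ones. Shisa6 went the other way in stem nuclei, with 11 and 10.8 against 3.44 and 4.05 CPM. The sorting receptor Sorcs3 had 51.3 and 166 CPM in 22-month females and males, against 312 and 390 CPM in 5-month females and males (log2 fold change -1.79 ± 0.28, adjusted p = 7.57e-08).

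Srebf1, the master regulator of fatty acid synthesis, had 51.3 CPM in 22-month females and 86.8 CPM in 22-month males, against 191 CPM in 5-month females and 233 CPM in 5-month males, a log2 fold change of -1.67 ± 0.31 (adjusted p = 1.47e-05). Apoe had 213 and 350 CPM in 22-month females and males, against 312 and 718 CPM in 5-month females and males. The Apoe ranges overlap, and its log2 fold change of -0.89 ± 0.25 (adjusted p = 0.0206) passed in none of the 4 leave-outs. The tight junction gene Cldn10 had 415 and 255 CPM in 22-month females and males, against 609 and 1127 CPM in 5-month ones (log2 fold change -1.44 ± 0.24, adjusted p = 9.9e-07). A2m, a protease inhibitor, had 23.7 and 7.89 CPM in the 22-month libraries, against 90.7 and 80.8 CPM in the 5-month ones (-2.59 ± 0.57, edgeR adjusted p = 0.000588). In other nuclei A2m was lower too, with 1.65 and 2.38 CPM in 22-month females and males, against 13.1 and 15.2 CPM in 5-month ones. Cldn10 had 5.01 and 6.38 against 12.2 and 12.2 CPM in those other nuclei. Srebf1 had 18.2 and 16.1 against 18.2 and 21.6 CPM there, and Apoe 89.4 and 97.5 against 91 and 92 CPM. Ptprz1 (-0.98), Htra1 (-1.53), Mest (-0.92), Chl1 (-1.29), Igfbp5 (-0.89), Col11a1 (-1.22), Mt1 (-0.96) and Fth1 (-0.88) were called lower as well.

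The calls of these genes depended on single libraries. In the 4 leave-out fits Shisa6 passed in 3, Slc39a12, Hes1, Sorcs3, Srebf1 and A2m in 2, Pde4b and Cldn10 in 1, and Npas3 in none. Without the pituicytes that hold markers of another type, the adjusted p was 0.00553 for Pde4b, 0.00482 for Slc39a12, 0.0301 for Shisa6 and Srebf1, 0.0405 for Hes1 and 0.049 for Sorcs3, but 0.0501 for Npas3, 0.0676 for Cldn10 and 0.0593 for A2m. With DESeq2 Pde4b (adjusted p = 0.000761) and Sorcs3 (0.0383) passed, and Slc39a12 (0.0501), Shisa6 (0.066), Hes1 (0.0977) and Srebf1 (0.233) did not.

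Of the other genes named as called higher, Mmp16 and Cntn4 passed in 2 leave-out fits, Cntn1, Grip1, Pdgfc and Kcnq3 in 1, and Ptprt, Gabra3 and Lin7a in none. Without the pituicytes that hold markers of another type, Pdgfc (adjusted p = 0.0663), Gabra3 (0.193), Lin7a (0.154) and Kcnq3 (0.056) were lost. Of the others called lower, Htra1 and Chl1 passed in 1 leave-out fit and Ptprz1, Mest, Igfbp5, Col11a1, Mt1 and Fth1 in none. Without those pituicytes Col11a1 alone of these 8 passed (0.0241), and the adjusted p of the other 7 was between 0.0769 for Mt1 and 0.241 for Igfbp5. Chl1 had 90.8 and 195 CPM in 22-month females and males, against 146 and 566 CPM in 5-month ones, so its groups overlap.

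By fold, the called genes with the largest increase were mostly below the level of other nuclei. The 10 higher ones were Xist, Kcnip4, Nkain2, Cadm2, Rasgrf1, A230057D06Rik, Kcnb2, Sntg1, Tsix and Dlgap1. Apart from Xist and its overlapping antisense partner Tsix, all 8 were at a lower CPM in pituicytes than in other nuclei of both 22-month libraries, and 14 of the 78 higher genes had over 25% of their UMIs in 1 nucleus. Sntg1 had 56.7% of its UMIs in 1 nucleus. The rise of Kcnip4, a potassium channel partner, rested on few counts, a ratio of 23.2 (95% counting interval 3.91 to 943). The 10 lower ones were Eif2s3y, Uty, Ddx3y, A2m, Lncbate1, Shisa6, Hes1, Sorcs3, Grina and Fut9. The Y-linked Eif2s3y had 0 and 0 CPM in the 22-month libraries, against 458 and 323 CPM in the 5-month ones, at least 82.1-fold lower with a floor of 3 counts over both 22-month libraries. These follow the sex-chromosome split of the libraries described above.

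Over the lists, glial genes had 0 of 13 tested members higher and 2 lower (Apoe and Ptprz1), with a median log2 fold change of -0.11, against -0.001 for all genes. Of 7 forebrain factors, Hes1 alone was lower. Of 10 adhesion genes, Cntn1, Cadm2 and Ctnnd2 were among those called higher and none was lower, with a median of 0.48. Ctnnd2 changed sign without the nuclei that hold other markers (-0.22), and the higher channel gene Kcnd2 did so too (-0.46). None of 4 receptors, 7 hormone handling genes, 2 immediate-early genes or 4 reactive glia genes tested passed.

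Of 6 hormone genes tested, Prl and Cga were higher and Gh lower. Prl had 23126 and 44308 CPM in pituicytes of the 22-month female and male libraries, against 4366 and 6799 CPM in the 5-month ones (log2 fold change 2.48 ± 0.32, adjusted p = 6.2e-12), while in other nuclei it had 40194 and 67670 CPM in the 22-month libraries, against 9000 and 16039 CPM in the 5-month ones. Growth hormone message Gh was lower, with 10329 and 15216 CPM in the 22-month libraries against 20427 and 44767 CPM in the 5-month ones (-1.34 ± 0.32, adjusted p = 0.00191). In other nuclei Gh had 35265 and 46391 CPM in the 22-month libraries, against 82578 and 131440 CPM in the 5-month ones, and the part of free hormone RNA in the gene calls above was not tested. Cga had 49.7% of its UMIs in 1 nucleus, and its log2 fold change was -0.062 without the nuclei that hold markers of another type, the opposite sign.

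Pituicytes of the libraries labelled female had more Sntb2, Tmem164, Otx2os1 and Etv5 than those labelled male, and less Lrrc7, Myo16, Kcnc2 and Chl1. Labelled sex was compared as females over males in the same fit, with labelled age as the covariate. Of 4791 genes 120 (2.5%) passed, 50 (1.04%) higher and 70 (1.46%) lower in libraries labelled female, and groups did not overlap at 33.2% of all genes. DESeq2 called 9 higher and 10 lower, and a fit with labelled sex as the only term 0 and 1. Leaving out each library in turn, none of the 50 and 2 of the 70 (Lrrc7 and Gm32647) passed in all 4 fits, and without pituicytes holding other markers 17 higher genes and 62 lower genes were called.

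Sntb2, a syntrophin of the dystrophin complex, was higher in both libraries labelled female. It had 2713 CPM in 22-month and 1617 CPM in 5-month females, against 865 CPM in 22-month and 818 CPM in 5-month males, with no overlap (log2 fold change 1.33 ± 0.24, edgeR adjusted p = 7.8e-06). Tmem164 had 3061 and 1979 CPM in the 22-month and 5-month females, against 1431 and 1065 CPM in the males (0.998 ± 0.24, adjusted p = 0.0022). Otx2os1 had 857 and 473 CPM in females, against 279 and 290 CPM in males (1.20 ± 0.25, adjusted p = 0.000226), and Etv5, an ETS factor downstream of FGF signals, had 245 and 201 CPM in females, against 94.7 and 105 CPM in males (1.18 ± 0.29, adjusted p = 0.00392). Hbb-bs, a haemoglobin message of blood, was also higher (1.91 ± 0.31, adjusted p = 4.9e-07). It had 379 and 141 CPM in pituicytes of the 22-month and 5-month female libraries, against 76.3 and 61.8 CPM in the male ones, and 96.8 and 74.8 against 54.6 and 34.7 CPM in other nuclei. Of the Hbb-bs UMIs, 27.7% were in 1 nucleus. Its call was lost without pituicytes that hold other markers (edgeR adjusted p = 0.284) and with DESeq2 (adjusted p = 0.0631). The part of Hbb-bs in the other calls was not tested.

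Lrrc7, a scaffold protein of the postsynaptic density known as densin, showed the strongest difference of the genes named for labelled sex by adjusted p. It had 43.4 and 50.4 CPM in pituicytes of 22-month and 5-month females, against 321 and 295 CPM in those of 22-month and 5-month males, a log2 fold change of -2.72 ± 0.33 (edgeR adjusted p = 1.05e-12). Both female libraries were below both male ones, whereas in other nuclei Lrrc7 was at 227 and 393 CPM in females, against 143 and 269 CPM in males. Myo16, an unconventional myosin, had 59.2 and 206 CPM in females, against 392 and 580 CPM in males (-1.999 ± 0.28, adjusted p = 2.15e-09), and the potassium channel Kcnc2 had 19.7 and 20.1 CPM in females, against 139 and 85.6 CPM in males (-2.52 ± 0.47, adjusted p = 1.94e-05). The heparan sulfate proteoglycan Gpc6 (-1.59 ± 0.25), the collagen Col23a1 (-1.04 ± 0.24) and the protease inhibitor Cst3 (-1.12 ± 0.25) were lower in females too. Chl1 had 90.8 and 146 CPM in females, against 195 and 566 CPM in males (-1.56 ± 0.29, adjusted p = 1.89e-05). In the 4 leave-out fits Lrrc7 passed in 4, Myo16 and Kcnc2 in 3, Chl1 in 2, Sntb2, Otx2os1 and Gpc6 in 1, and Tmem164, Etv5, Col23a1 and Cst3 in none. Without pituicytes that hold other markers Col23a1 did not pass (edgeR adjusted p = 0.103). With DESeq2 Sntb2 (adjusted p = 4.29e-06), Tmem164 (0.000125), Lrrc7 (0.000718), Myo16 (0.00188) and Otx2os1 (0.048) passed. Chl1 (0.0616) and Etv5 (0.444) did not, and Kcnc2 had no adjusted p there. With 1 doublet threshold for all libraries Etv5 did not pass either (edgeR adjusted p = 0.0701).

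The other genes of the largest folds were, higher in females, Dcn, Fshb, Ptgds, Sntg1, Prkcb, Enox1, Kcnq3, Cyp4f15 and Fgf13, and, lower in females, Kcnj3, Adgrl2, Gm1604a, Adgrb3, Gm32647, Angpt1, Ldb2 and Sgcz. Dcn and Ptgds, found in 8 and 9 pituicytes, and Fshb, with 55% of its UMIs in 1 nucleus, rested on few nuclei. Of those lower in females, all but Adgrl2 were below the level of other nuclei in both male libraries. Over the lists, Apoe of 13 glial genes was lower (median -0.12, all genes -0.01), Hes1 of 7 forebrain factors was higher (-0.12 without the 5-month females), Slc6a6 of 7 transport genes was higher (0.78 ± 0.23, adjusted p = 0.0326), and the neuronal markers Snap25 and Syt1, which also serve hormone release in endocrine cells, were lower. Slc6a6 passed in none of the 4 leave-out fits (adjusted p 0.887 to 0.999), nor with DESeq2 (0.0949), without pituicytes that hold other markers (0.0806) or with 1 doublet threshold for all libraries (0.155). Cntn1 was among the adhesion genes called, and was higher.

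**Figure D4:**
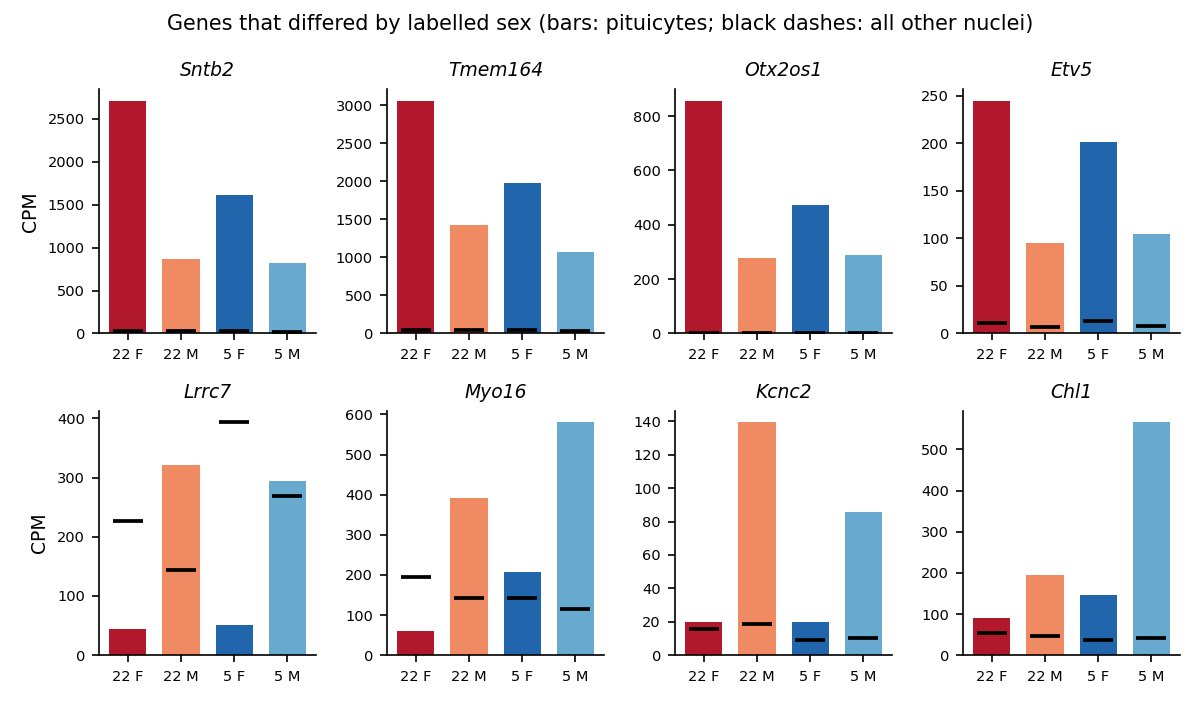
CPM in pituicytes (bars) and in all other nuclei (black dashes) of the 4 libraries, for 8 genes called by labelled sex. Sntb2 has 2713 and 1617 CPM in females against 865 and 818 CPM in males, and Lrrc7 has 43.4 and 50.4 against 321 and 295 CPM.

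Whether the labelled age difference was particular to pituicytes was tested against 475 stem nuclei of the same libraries (98, 214, 84 and 79 in the 22-month female, 22-month male, 5-month female and 5-month male library). The test of the difference between the 2 classes' differences called 0 of 6727 genes (0%) with edgeR, with 339 at an unadjusted p under 0.05 and 0 with DESeq2. Leaving out each library gave 7 to 17 genes higher and 0 to 10 lower. The lowest adjusted p with all libraries was 0.272, for the potassium channel Kcnb2 (2.96 ± 0.50). The labelled age differences given above are therefore not shown to differ from those of stem nuclei.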

How the data were processed

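Whole pituitaries of wild-type UM-HET3 mice were profiled by single-nucleus RNA sequencing, in 1 library per labelled group of age and sex, each pooling 3 glands. The deposited files hold raw UMI counts per gene and barcode, made by the authors with Cell Ranger 7.0.1 per the file headers, on mm10 per the submitters' processing notes. Whether introns or strand were used in counting is not stated there. Total counts per library were 49262366, 65773807, 35240987 and 33328821 in 22-month females, 22-month males, 5-month females and 5-month males, and 8130, 12066, 7420 and 7999 barcodes passed the filters.

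Members and gene lists were chosen with earlier results of these data known. Counts of members were summed per library and tested with edgeR 4.0.16 (quasi-likelihood, TMM, filterByExpr, Benjamini-Hochberg adjustment) in R 4.3.3; DESeq2 1.42.0 was an alternative, as were leaving out each library, marker thresholds and doublet removal. With 1 library per group and nothing to separate the animals of a pool, p-values measure only the spread between these libraries, which may be technical. In a leave-out, the pair with 1 library left is assumed to vary like the other. The SE is the log2 fold change divided by the root of F. Doublets were kept in the main fit. Scrublet (scanpy 1.11.5) marked 1 barcode of the library labelled 22-month males (0.00829%) and so did not work there; an alternative used 1 threshold for all libraries.

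Named genes were up to 10 in each direction with the largest fold among those called, with the same direction in both pairs and at least 20 counts in the higher pair; the 20 leading genes by ratio to other nuclei; and listed genes. The other genes named for labelled age and sex and for spread between nuclei were chosen after their values were seen. Intervals are exact binomial at 95% and cover counting error alone. The scripts were tested on simulated data. Some listed genes were counted in their lists and are not reported singly here.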

Additional observations from a re-analysis of the deposited data

Results flagged for a closer look

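Grin2b, a subunit of the NMDA glutamate receptor, was called by labelled age in pituicytes with a log2 fold change of 1.65, but its 2 pairs of libraries differed. The pair labelled female was nearly level (log2 ratio -0.0185) and the pair labelled male rose (3.90). It had 209 CPM in 22-month females and 673 CPM in 22-month males, against 212 CPM in 5-month females and 42.8 CPM in 5-month males. The difference between the pairs was not tested.

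The share of pituicytes moved in opposite ways by labelled age. It changed by -0.0312 percentage points between the 22-month and 5-month libraries labelled female, and by 0.0221 percentage points between those labelled male. The intervals overlap and the difference was not tested.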

How the results depend on the processing

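Counts of called genes depended on the fit, and the cause was not tested. For labelled age, 78 genes were higher and 44 lower. DESeq2 called 12 higher and 5 lower, a fit with labelled age as the only term 1 and 2, and a fit without members holding 2 markers of another type 16 and 11. Without the doublets that Scrublet marked, 123 were higher. Leaving out each library gave 1 to 56 higher and 0 to 19 lower, the lowest of both without the library labelled 22-month males. For labelled sex, 50 were higher and 70 lower. DESeq2 called 9 and 10, the fit with 1 term 0 and 1, the fit without Scrublet doublets 28 and 28, and 1 Scrublet threshold for all libraries 31 and 26. With at least 3 of the 4 markers 44 were lower, and without members holding other markers 17 were higher. Leaving out each library gave 7 to 37 higher, the lowest without 22-month females, and 12 to 33 lower, the lowest without 22-month males. For pituicytes minus stem nuclei, where the 4-library fit called 0 in each direction, leave-outs called 7 to 17 higher and 0 to 10 lower.

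Reversed without members holding other markers were, for labelled age, Ctnnd2 (-0.22), Kcnd2 (-0.46) and Cga (-0.062), and for labelled sex Cga (-0.59). Leaving out each library moved the labelled sex log2 fold change of Sntg1 over -0.44 to 3.26 and of Hes1 over -0.12 to 2.22. Other settings of the filter, normalization and hormone genes kept both counts within 1.5 times. Shares stayed within the intervals given for them, and the count of listed genes above other nuclei was 34 of 51, against 32 of 46 with at least 3 markers and 35 by thinned share. Depth limits what can be said of genes under 10 counts in a library. No paired analysis was possible because the labels give no replicate numbers that groups share, but the other labelled factor was a covariate, and pituicytes and stem nuclei were compared within libraries.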
